A study of Mus musculus with 4 samples.

Results

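The Polycomb group genes were examined for chromatin accessibility in immortalized mouse embryonic fibroblasts (MEFs) with and without the histone acetyltransferase HAT1. The 10 genes were Ezh2, Ezh1, Eed, Suz12, Jarid2, Bmi1, Ring1, Rnf2, Cbx2 and Kdm2b. An ATAC-Seq site was taken as theirs where it overlapped the gene body or came within 10 kb of the start of transcription (TSS), by the GENCODE gene models on mm10. This rule gave 44 of the 82325 sites in the table, and the rule itself uses no accessibility value. Of the 44 sites, 22 were promoter sites of the 10 genes, 4 were promoter sites of neighbouring genes, 16 lay elsewhere in the gene bodies and 2 in the flanks. Each gene had 1 (Eed) to 12 (Jarid2) sites.

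Polycomb proteins keep developmental genes silent by modifying histones, and they work in a pair of main complexes. PRC2 places methyl groups on lysine 27 of histone H3 through its catalytic subunit EZH2 or EZH1, which needs EED and SUZ12 to be active. PRC1 places ubiquitin on histone H2A through RING1 or RNF2, and its CBX subunits bind the mark that PRC2 leaves. In fibroblasts the same system holds the Cdkn2a locus silent, and BMI1 is best known for this role.

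Both genotypes were C57bl6 MEFs, with each line grown from its own embryo and immortalized with a plasmid that expresses SV40 T antigen. The 2 HAT1+/+ lines (WT) and the 2 HAT1−/− lines (KO) gave 1 library each, and HAT1 was absent from KO embryos from the start, so immortalization and culture followed its loss. HAT1 acetylates newly made histone H4 before it is assembled into chromatin. SV40 T antigen is known to bind the p53 and Rb proteins, and all 4 lines carry it.

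Values are normalized counts, which are whole numbers that look like sequencing counts per site divided by a factor per library and rounded. Whether reads or fragments were counted was not stated. Each library was made from a population of cells, so fewer cells with an open site and less opening per cell cannot be told apart. Library totals were 8008069 and 8150872 normalized counts in WT and 8427919 and 8516263 in KO, so both KO totals were higher. Scaling to equal totals moved the median log2 fold change over all sites from 0.01 to -0.06. An approximate depth of 5650000 (KO replicate 2) to 11400000 (WT replicate 2) reads in sites was recovered from the pattern of the rounded values. The depth of KO replicate 1 rests on a weaker fit to that pattern. At the 7 fibroblast marker genes examined, mean promoter values were 111 to 361 normalized counts. Of the 7 markers of other cell types, Ptprc, Pecam1, Pou5f1 and Myod1 had no promoter site, and Cdh1, Epcam and Sox2 had mean promoter values of 39.0, 20.5 and 63.0. The Hat1 promoter site had 390 and 384 normalized counts in WT and 438 and 368 in KO, so accessibility at the gene itself did not separate the genotypes, and the labels could not be checked in this way.

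What the promoters look like in sequence is shown first, because CpG content set the main promoter sites of these genes apart from their gene-body and flanking sites. CpG content is given as the observed number of CG dinucleotides over the number that the C and G content alone would give. Mouse promoter windows of 250 bases upstream of a TSS (RefSeq, GRCm38) are printed 5′ to 3′ on the strand of the gene, with every CG in capitals. Suz12 and Kdm2b are shown as the promoters with the highest accessibility per kb, and Bmi1 and Ezh1 as those with the lowest.
Suz12, chr11:79992856-79993105, plus strand: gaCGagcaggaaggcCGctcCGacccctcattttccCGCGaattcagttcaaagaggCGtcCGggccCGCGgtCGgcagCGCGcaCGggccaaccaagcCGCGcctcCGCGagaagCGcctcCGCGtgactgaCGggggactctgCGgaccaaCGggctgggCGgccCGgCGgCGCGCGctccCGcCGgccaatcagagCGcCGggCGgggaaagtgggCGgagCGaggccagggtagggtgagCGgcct
Kdm2b, chr5:122900368-122900617, minus strand: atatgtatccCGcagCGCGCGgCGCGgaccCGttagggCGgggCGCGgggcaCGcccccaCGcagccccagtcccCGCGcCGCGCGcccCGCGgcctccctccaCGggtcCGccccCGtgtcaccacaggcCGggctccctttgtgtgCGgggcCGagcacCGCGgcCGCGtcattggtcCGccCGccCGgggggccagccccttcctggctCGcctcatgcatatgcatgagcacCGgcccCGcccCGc
Bmi1, chr2:18676768-18677017, plus strand: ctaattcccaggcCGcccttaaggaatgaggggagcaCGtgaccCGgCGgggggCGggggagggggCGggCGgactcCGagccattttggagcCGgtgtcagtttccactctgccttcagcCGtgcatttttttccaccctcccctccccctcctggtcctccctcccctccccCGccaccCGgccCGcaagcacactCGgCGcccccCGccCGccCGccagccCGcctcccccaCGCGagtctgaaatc
Ezh1, chr11:101226464-101226713, minus strand: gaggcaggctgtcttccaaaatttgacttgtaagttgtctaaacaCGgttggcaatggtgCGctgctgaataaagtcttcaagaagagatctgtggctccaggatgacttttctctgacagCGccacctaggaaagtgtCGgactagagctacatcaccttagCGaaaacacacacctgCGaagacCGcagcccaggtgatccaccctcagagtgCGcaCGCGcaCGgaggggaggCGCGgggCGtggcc

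The Suz12 window held 37 CG dinucleotides at a GC content of 73.6% and the Kdm2b window 36 at 78.0%. Fewer CG dinucleotides stood in the Bmi1 window (21, GC content 70.4%) and in the Ezh1 window (14, 55.2%). The number did not follow accessibility throughout, since the Eed window held 12 (54.4%) and Eed ranked between Kdm2b and Bmi1 per kb. No RefSeq window was available for Cbx2. Only 16 of the 250 bases of the Bmi1 window lay in its accessible site, against all 250 for Suz12 and Kdm2b and 188 for Ezh1, and the Bmi1 site itself had 13.8 CG dinucleotides per 100 bases against 9.80 in the Suz12 site. In Ezh1 most of them lay near the TSS, at the right end of the printed run. The Suz12 window contained TTTCCCGC, the letters of an E2F motif, which 0.895% of the 32851 promoter windows in the table held on either strand. Around the centres of the deposited sites, in windows of 300 bases, the same letters stood at the Suz12 and Eed main promoter sites, and the related letters TTTGGCGC stood at that of Ezh2. Over the main promoter sites of all genes, TTTCCCGC was found in 1.74% and TTTGGCGC in 0.727%. The 3 genes code for 3 of the PRC2 core subunits, and a match describes the sequence only.

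The main promoter site of a gene is the one with the highest mean value among the sites whose nearest protein-coding TSS is its own and lies within 3 kb. All 10 main promoter sites had CpG observed over expected above 0.6, from 0.815 (Suz12) to 1.12 (Bmi1), against 67.4% of the 13748 distinct main promoter sites of all genes. Of the 12 further promoter sites of these genes, 6 were above 0.6 and 6 were not, with a range of 0.116 to 0.846. None of the 18 gene-body and flanking sites of the same genes passed 0.6, and 2.02% of the 53195 sites away from promoters did. The median GC content was 70.2% at the main promoters and 46.9% at the gene-body and flanking sites.

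**Figure D1:**
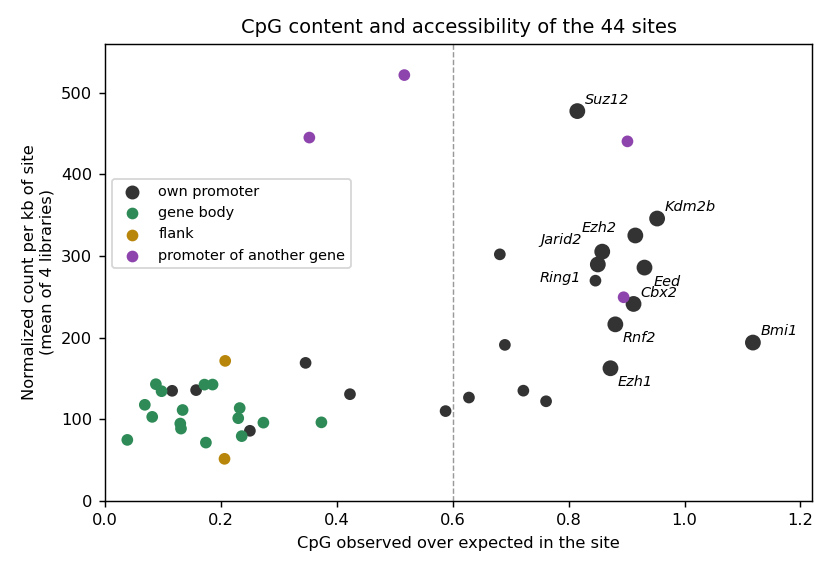
CpG observed over expected (horizontal axis) and accessibility in normalized counts per kb of site, mean of 4 libraries (vertical axis), for the 44 sites of the 10 Polycomb genes. Large points are the main promoter sites, which all lie right of the dashed line at 0.6, while the gene-body and flanking sites all lie left of it. Points under the promoter of another gene are the Commd3, H2-Ke6 and Rxrb promoters near Bmi1 and Ring1.

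Per kb of site, the Suz12 promoter was the most accessible of the 10, with 478 normalized counts per kb (lowest library 422, highest 559), at percentile 90.5 among the main promoters of all genes. The Kdm2b promoter came next with 346 normalized counts per kb (274 to 389), and its range did not reach that of Suz12. Below it followed Ezh2 (325), Jarid2 (305), Ring1 (290), Eed (286), Cbx2 (241), Rnf2 (216), Bmi1 (194) and Ezh1 (162), all in normalized counts per kb, and from Kdm2b downward the ranges of neighbours in this order overlapped. Ezh1, the alternative catalytic subunit of PRC2, therefore stood at percentile 28.0 and Ezh2 at percentile 69.3 on the same scale. The levels of Ezh2 and Ezh1 per kb did not overlap, with a lowest Ezh2 library of 306 and a highest Ezh1 library of 182 normalized counts per kb.

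The comparison of KO with WT asks whether loss of HAT1 altered accessibility at these genes. No site of the 10 genes was called differentially accessible. For a call, the limma fit over all sites had to give p under 0.01 before adjustment together with a log2 fold change of 1 or more in size, and 0.373% of all sites (307 of 82325) were called. With Benjamini-Hochberg adjustment, limma gave no site with adjusted p under 0.05, among the 44 or among all 82325. At an unadjusted p under 0.05 there was 1 site of the 44, in Cbx2, beside 3.13% of all sites in either direction and 1.59% lower in KO. A log2 fold change of 1 or more in size was found at 2 of the 44, in Cbx2 and Kdm2b, beside 6.42% of all sites. Of the 44 sites, 26 had a log2 fold change below 0 (background 49.3%), and the median log2 fold change was -0.04 against 0.01 over all sites. Without KO replicate 2, the shallowest library, 22 of 44 were below 0, and without KO replicate 1 the number was 26. Both KO libraries were lower than both WT libraries at 12 sites (27.3%, background 14.3%) and higher at 5 (11.4%, background 14.6%), and the genotypes overlapped at 27. Among the 10 main promoters the KO libraries were both higher at 3 (background 21.6% of main promoters) and both lower at 1 (background 14.2%). These counts describe the list and were not tested, since sites of 1 gene share a locus and its libraries.

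Differences between genotype means were set beside those between single lines of 1 genotype. Over the 44 sites the median absolute log2 difference was 0.21 between genotype means, 0.24 between the 2 WT lines and 0.25 between the 2 KO lines. Over all sites the same medians were 0.25, 0.34 and 0.43. A mean of 2 lines varies less than a single line, so the first value is not directly comparable with the other 2. At 14 of 44 sites (31.8%) the genotype difference was larger than both within-genotype differences, and over all sites this held for 18.9%. Because 2 lines per genotype were compared, intervals were wide at low sites. The 95% interval of the log2 fold change lay within 1 unit of 0 on both sides for all 10 main promoter sites, and for 20 of the 44 sites in all.

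**Figure D2:**
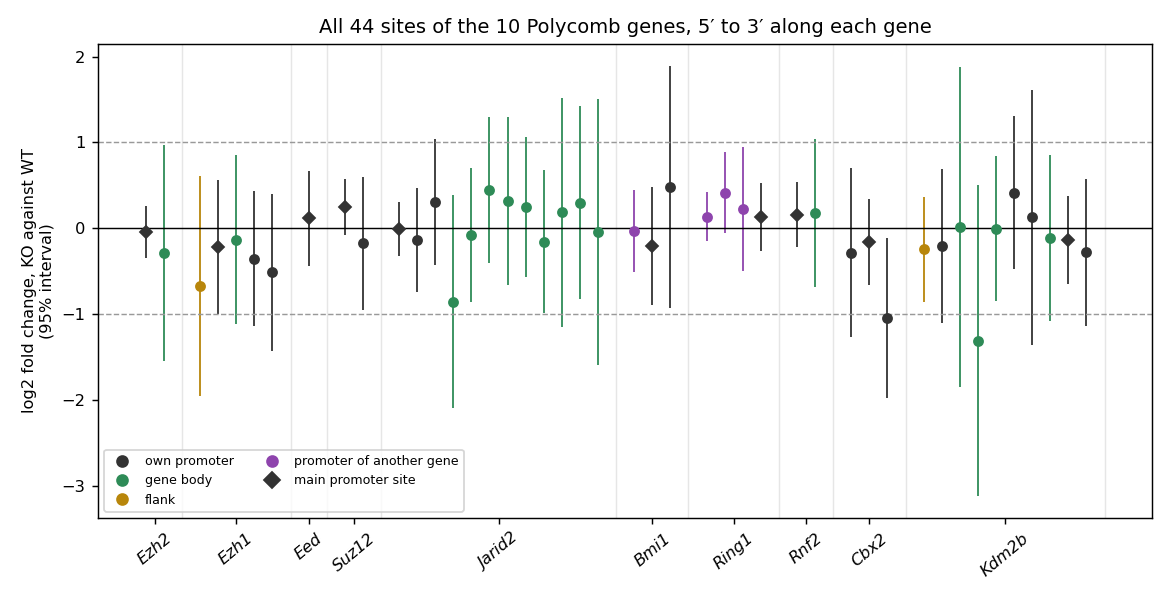
Log2 fold change of KO against WT with its 95% interval from limma (vertical axis) for each of the 44 sites, ordered from 5′ to 3′ within each gene (horizontal axis), coloured by kind of site, with diamonds for main promoter sites. Dashed lines mark a log2 fold change of 1 in either direction. Only the Cbx2 site at the 3′ end of its row has an interval that does not reach 0, and the lowest point is the Kdm2b intronic site at -1.31.

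The promoter of Ezh2, the main catalytic subunit in dividing cells, had 516 and 445 normalized counts in WT replicates 1 and 2 and 468 and 460 in KO replicates 1 and 2 (chr6:47594188-47595639, overlapping an exon and annotated UTR). Both KO values lay between the WT values, and the log2 fold change was -0.05 ± 0.12 (SE, n = 2 per genotype; limma adjusted p = 1). Its other site, in an intron 35.7 kb downstream, had 68 and 93 in WT and 39 and 108 in KO, so that the KO lines enclosed the WT lines. The log2 fold change there was -0.29 ± 0.52, and it was 0.44 without KO replicate 1.

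Ezh1 had 5 sites at 1 locus, and all 5 had a log2 fold change below 0 (background 49.3% of all sites). At the promoter (chr11:101226135-101226651, over the first exon) the values were 91 and 88 in WT and 94 and 63 in KO, with a log2 fold change of -0.21 ± 0.32. The genotypes overlapped there, and without KO replicate 2 the log2 fold change was 0.07. At the other 4 sites both KO libraries were lower than both WT libraries (background 14.3% of all sites). The largest difference was at the weak flanking site 5.63 kb upstream (chr11:101231921-101232265), which had 23 and 21 in WT and 12 and 15 in KO (log2 fold change -0.67 ± 0.53). Further into the gene, both remaining promoter sites lay within 3 kb of annotated Ezh1 starts but held none. The site 14.3 kb into the gene had 71 and 61 in WT and 56 and 47 in KO (-0.35 ± 0.32), and the site 25.1 kb into it had 44 and 38 in WT and 31 and 26 in KO (-0.51 ± 0.38). An intronic site 5.07 kb from the 5′ end had 28 and 28 in WT and 25 and 26 in KO, a gap of 2 normalized counts. Summed over its 5 sites, Ezh1 had 257 and 236 in WT and 218 and 177 in KO, a log2 fold change of -0.32 ± 0.19 with limma adjusted p = 0.928.

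The only site of Eed, whose product binds the methyl mark and stimulates the enzyme, was its promoter (chr7:89980275-89981500), with 343 and 321 in WT and 288 and 450 in KO. The KO lines lay on either side of the WT lines, and the log2 fold change of 0.12 ± 0.23 became 0.44 without KO replicate 1 and -0.20 without KO replicate 2. Suz12, which codes for the scaffold subunit, had a promoter site (chr11:79992487-79993384) with 405 and 379 in WT and 430 and 502 in KO. Both KO libraries were higher, and the log2 fold change of 0.25 ± 0.14 (interval -0.08 to 0.57) had the smallest p of the 10 main promoters in limma, over 0.05 before adjustment (adjusted p = 1). It was 0.13 without KO replicate 2 and 0.11 under quantile normalization, and without KO replicate 1 it was 0.36 with p under 0.05 before adjustment. A second Suz12 site, over coding sequence 0.59 kb downstream of the TSS, went the other way with 54 and 58 in WT and 49 and 50 in KO (-0.17 ± 0.32). Over the PRC2 core, 8 of 10 sites were below 0 (background 49.3% of all sites) and none passed p under 0.05. Of the 8, 5 were the sites of Ezh1 alone, and the main promoters of Eed and Suz12 were above 0.

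**Figure D3:**
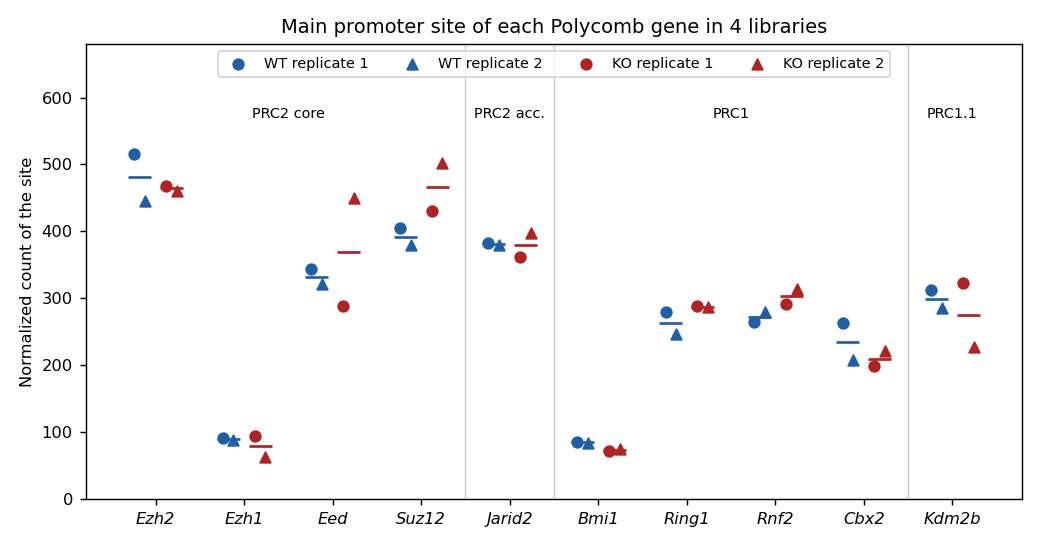
Normalized counts (vertical axis, from 0) at the main promoter site of each of the 10 Polycomb genes (horizontal axis) in WT (blue) and KO (red), with replicate 1 as circles, replicate 2 as triangles and short lines for the mean of 2 libraries. Genotypes overlap at 6 genes, KO is higher at Suz12, Ring1 and Rnf2, and KO is lower at Bmi1, where the WT values are 85 and 84 and the KO values 71 and 75.

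JARID2 is an accessory subunit that helps PRC2 bind chromatin, and its gene is the longest of the 10, at 192 kb, with 12 sites. The promoter site (chr13:44730197-44731441) had 382 and 380 in WT and 362 and 397 in KO, and its log2 fold change of -0.01 ± 0.13 was the closest to 0 of the main promoters. A pair of further CpG-rich sites near the 5′ end gave 116 and 126 in WT and 115 and 105 in KO (-0.14 ± 0.25), and 106 and 74 in WT and 104 and 116 in KO (0.31 ± 0.30). Of the 9 sites in the gene body, 4 were below 0. The largest difference was at an intronic site 38.0 kb downstream (chr13:44767242-44767610), with 30 and 45 in WT and 28 and 14 in KO (-0.86 ± 0.51), and it was -0.38 without KO replicate 2. Going the other way, the intronic site 49.9 kb downstream (chr13:44778958-44779707) had 56 and 96 in WT and 105 and 96 in KO (0.45 ± 0.35). The 2 sites lie in the same intronic stretch and differ in sign, and neither passed the test. The remaining gene-body sites of Jarid2 had log2 fold changes between -0.16 and 0.32. The sum over all 12 sites was 932 and 998 in WT and 1010 and 995 in KO (log2 fold change 0.06 ± 0.11).

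The Jarid2 gene body also held the only AP-1 motifs (TGANTCA, either strand) among the 18 gene-body and flanking sites of the 10 genes. AP-1 is the family of FOS and JUN transcription factors, and its motif stands at many distal accessible sites of fibroblasts. It was present in 4 of these 18 site windows of 300 bases, all 4 among the Jarid2 sites between 38.0 and 51.8 kb from the 5′ end, against 46.0% of the 53195 sites away from promoters. Of these sites, the shortest is printed with its AP-1 motif in capitals (mm10, plus strand).
Jarid2 intronic site, chr13:44781181-44781461: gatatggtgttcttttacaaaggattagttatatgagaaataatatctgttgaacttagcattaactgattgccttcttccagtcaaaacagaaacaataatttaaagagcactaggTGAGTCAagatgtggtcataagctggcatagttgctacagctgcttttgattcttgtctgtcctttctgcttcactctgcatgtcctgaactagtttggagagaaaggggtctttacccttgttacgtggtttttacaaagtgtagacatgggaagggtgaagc
This site had 26 and 42 in WT and 41 and 42 in KO, so both KO values fell within or at the edge of the WT range (0.32 ± 0.40). A single CG dinucleotide stood in its 281 bases, in contrast to the promoter windows printed above.

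Bmi1 codes for a partner of the ubiquitin ligase subunits, and its own promoter site was weak (chr2:18677002-18677407), with 85 and 84 in WT and 71 and 75 in KO. Both KO libraries were lower, with a log2 fold change of -0.21 ± 0.28. The site 4.21 kb downstream, over an exon (chr2:18681019-18681431), varied among lines of 1 genotype more than between genotypes, with 76 and 24 in WT and 49 and 74 in KO (0.48 ± 0.58; -0.33 without WT replicate 2). The strongest site within reach of Bmi1 belongs to the neighbouring gene Commd3, with 290 and 226 in WT and 265 and 236 in KO (-0.03 ± 0.20).

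Ring1 and Rnf2 code for the alternative catalytic subunits of PRC1, and all 6 sites assigned to them had a log2 fold change above 0. As background, 49.3% of all sites were below 0 and 56.1% of main promoters were above 0. The Ring1 promoter site (chr17:34024317-34025266) had 280 and 246 in WT and 288 and 287 in KO (0.13 ± 0.16). Its log2 fold change was 0.04 without WT replicate 2 and 0.22 without WT replicate 1. With equal totals it was 0.06, and under quantile normalization 0.04. Ring1 lies in a gene-dense stretch, and its other 3 sites are promoters of H2-Ke6 and Rxrb. One of the H2-Ke6 sites (chr17:34027821-34028277) had 223 and 186 in WT and 255 and 290 in KO, with a log2 fold change of 0.42 ± 0.19 and a limma adjusted p = 1. The shorter H2-Ke6 site had 84 and 80 in WT and 111 and 83 in KO, with overlap (0.23 ± 0.30). The Rxrb site had 400 and 392 in WT and 434 and 436 in KO (0.14 ± 0.12). KO was higher than WT in every pair of libraries at 3 of the 4 sites near Ring1, beside 14.6% of all sites and 21.6% of main promoters. The 4 sites share 1 locus, and under quantile normalization 3 of the 4 remained above 0. The sum over the 4 was 987 and 904 in WT and 1088 and 1096 in KO (log2 fold change 0.21 ± 0.11, limma adjusted p = 0.928). At the Rnf2 promoter (chr1:151500020-151501347) the values were 264 and 279 in WT and 292 and 314 in KO, without overlap (0.16 ± 0.16). The Rnf2 promoter value was 0.09 with equal totals and 0.06 under quantile normalization. Its intronic site had 51 and 39 in WT and 57 and 45 in KO, with overlap (0.18 ± 0.36), and the log2 fold change was 0.01 without KO replicate 1 and -0.01 without WT replicate 2.

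Cbx2 codes for a chromodomain subunit that compacts chromatin, and it had 3 sites within 6 kb, each with a log2 fold change below 0 (background 49.3% of all sites). The promoter site (chr11:119022739-119023659) had 263 and 207 in WT and 198 and 221 in KO (-0.16 ± 0.21), and it was 0.02 without WT replicate 1. A site 1.62 kb upstream had 37 and 66 in WT and 42 and 39 in KO (-0.28 ± 0.41), and it was 0.13 without WT replicate 2. The third site, 3.42 kb downstream of the TSS, had 77 and 51 in WT and 33 and 27 in KO, a log2 fold change of -1.05 ± 0.38 (interval -1.97 to -0.12). Both KO lines were lower there than both WT lines, with limma p under 0.05 but not under 0.01 before adjustment and adjusted p = 1, so it did not pass the call rule. Leaving out each library in turn gave log2 fold changes of -0.75 to -1.34, and in none of these 4 fits was p under 0.05. Because this site carried the clearest difference, its sequence is printed with every CG in capitals (mm10, plus strand, the strand of Cbx2).
Cbx2 downstream site, chr11:119026244-119026521: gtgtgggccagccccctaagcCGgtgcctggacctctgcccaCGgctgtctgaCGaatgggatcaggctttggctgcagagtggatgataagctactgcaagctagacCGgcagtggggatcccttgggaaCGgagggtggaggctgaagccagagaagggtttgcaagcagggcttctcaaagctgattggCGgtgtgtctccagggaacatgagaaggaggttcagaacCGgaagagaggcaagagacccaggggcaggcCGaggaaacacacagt
The run starts in an intron and ends in a coding exon. It held 8 CG dinucleotides in 278 bases, a CpG observed over expected of 0.346, against 0.912 at the Cbx2 promoter site. Summed over its 3 sites, Cbx2 had 377 and 324 in WT and 273 and 287 in KO, a log2 fold change of -0.32 ± 0.16. This was the smallest p of the 10 gene sums (limma adjusted p = 0.928), so none of the 10 passed p under 0.05, beside 3.88% of the 16947 genes with a site, and none was called, beside 0.301%.

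KDM2B binds unmethylated CG dinucleotides through its CXXC domain and brings a variant PRC1 to CpG islands. Its gene spans 119 kb and had 10 sites. The strongest was not at the 5′ end but at an internal start 89.5 kb into the gene (chr5:122899950-122900777), whose upstream sequence is printed above, with 312 and 285 in WT and 322 and 227 in KO (-0.14 ± 0.21). Shorter Kdm2b transcripts begin there. KO replicate 2 was the lowest library, and without it the log2 fold change was 0.11. No site covered the 5′ end itself. The nearest, 1.56 kb into the gene (chr5:122988026-122988501), held no annotated Kdm2b start. It had 75 and 54 in WT and 67 and 45 in KO (-0.21 ± 0.37), with overlap of the genotypes. Per kb of site the internal start had 346 normalized counts, the highest value of the Kdm2b sites.

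Some Kdm2b sites differed between lines of 1 genotype. The intronic site 10.3 kb into the gene (chr5:122979231-122979716) had 88 and 24 in WT and 83 and 26 in KO, and the log2 fold change between genotypes was 0.01 ± 0.77. A like order was seen at a promoter site over an exon, 38.1 kb into the gene (chr5:122951549-122951930), with 63 and 21 in WT and 55 and 29 in KO (0.13 ± 0.61). Both were high in WT replicate 1 and KO replicate 1 and low in the other 2 lines. Over all sites Spearman correlation was 0.891 between WT replicate 1 and KO replicate 1 and 0.878 between WT replicate 2 and KO replicate 2. It was 0.877 between the WT lines, 0.835 between the KO lines, and 0.860 and 0.861 for the other pairs across genotypes. Lines were therefore as alike across genotypes as within them, and this order is not particular to Kdm2b. The largest fold change of all 44 sites was at 20.4 kb (chr5:122969269-122969636), with 33 and 37 in WT and 6 and 29 in KO (-1.31 ± 0.75; limma adjusted p = 1). It rested on KO replicate 1, since the log2 fold change was -0.26 without that library and -2.36 without KO replicate 2. About 1 kb away, the site at 21.3 kb had 60 and 44 in WT and 47 and 56 in KO, with no such gap. The other 4 Kdm2b sites had log2 fold changes between -0.28 and 0.41, and of these the genotypes did not overlap at the flanking site 4.71 kb upstream, with 119 and 124 in WT and 98 and 107 in KO (-0.24 ± 0.25).

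**Figure D4:**
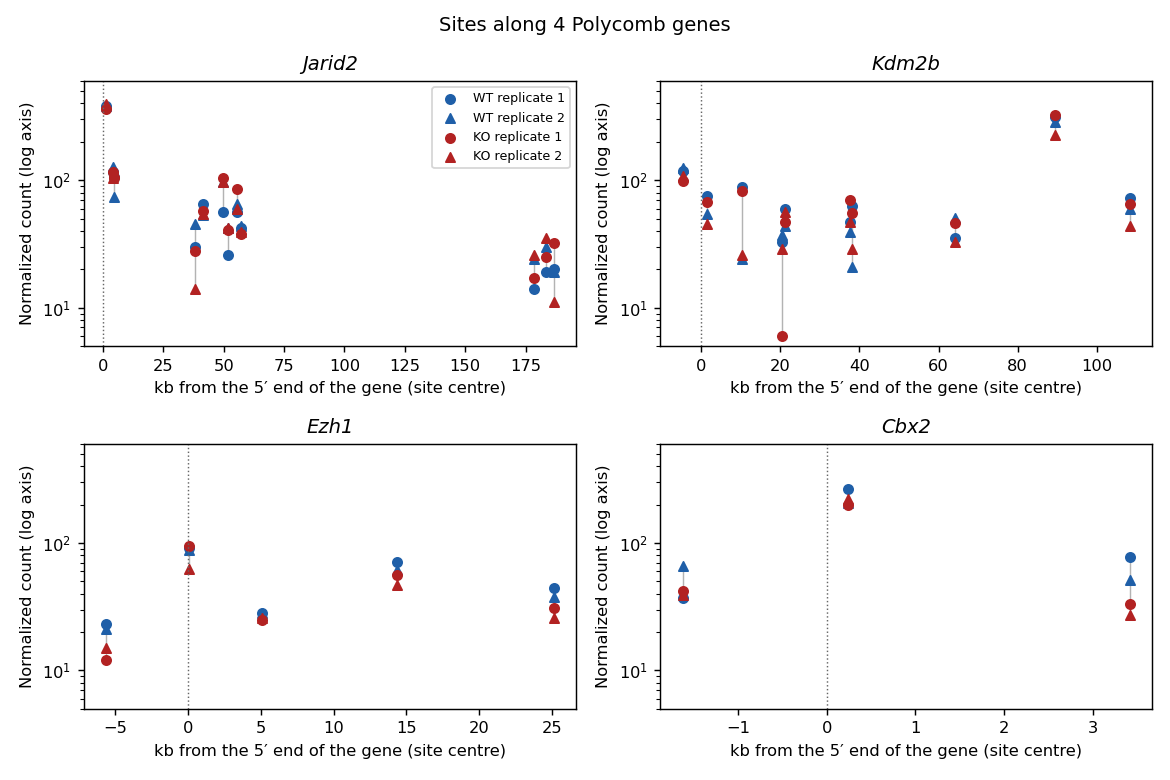
Normalized counts on a log axis (vertical) of every site of Jarid2, Kdm2b, Ezh1 and Cbx2 against the distance of the site centre from the 5′ end of the gene in kb (horizontal, dotted line at 0), for 2 WT (blue) and 2 KO (red) libraries, with a grey line over the range of the 4. Jarid2, Ezh1 and Cbx2 are highest next to the 5′ end, and Kdm2b is highest at 89.5 kb. The lowest point is KO replicate 1 at 6 normalized counts, 20.4 kb into Kdm2b.

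The surroundings of the 10 genes did not move much in either direction. Averaged over 25 consecutive sites around each of the 44, the log2 fold change lay between -0.18 and 0.20. The study defines HAT1-dependent accessibility domains in primary MEFs, from windows of 25 of its own data points, by a cutoff of -0.58. In the immortalized lines, with the sites and limma fold changes used here, no site of the Polycomb genes stood in a window below that value. The domain positions listed by the study were not compared with these genes, so whether any gene lies in a domain was not tested. On the 8 chromosomes that carry these genes the median log2 fold change of all sites was between -0.01 and 0.04.

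The other genes of the Polycomb system were 44 genes with 201 sites under the same rule, among them the further PRC2 subunits, the canonical and variant PRC1 subunits, the H2A deubiquitinase PR-DUB and the H3K27 demethylases. None of the 201 sites was called (background 0.373%). At unadjusted limma p under 0.05 there were 5 sites, all higher in KO, beside 1.54% of all sites with that direction. The median log2 fold change over the 201 sites was 0.05. Of 42 main promoter sites, 30 were above 0, where the background is 56.1% of main promoters. The KO libraries had the higher totals, and the number above 0 was not counted again with equal totals. Of the 42, 2 had p under 0.05, both higher in KO, where the background is 4.1% in either direction and 2.61% higher in KO.

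The 2 were Phf19 and Asxl2. PHF19 is a Polycomb-like protein that guides PRC2, and its promoter had 371 and 462 in WT and 577 and 544 in KO (log2 fold change 0.44 ± 0.14, limma adjusted p = 1). ASXL2 is a cofactor of the deubiquitinase BAP1, and its promoter had 485 and 590 in WT and 683 and 704 in KO (0.37 ± 0.12, limma adjusted p = 1). KO was higher in every pair of libraries at both. For both, p was over 0.05 without WT replicate 1 (log2 fold changes of 0.28 and 0.23), without either KO replicate, under quantile normalization (0.29 and 0.19) and without the intensity trend.

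Outside main promoters, the smallest p among the 201 sites was in an intron of Cbx7, a CBX subunit of PRC1, with 252 and 204 in WT and 433 and 334 in KO (log2 fold change 0.74 ± 0.20, limma adjusted p = 1). Its p was under 0.01 before adjustment, and its fold change kept it from a call. A site near the start of Bcor, a subunit of the variant PRC1 that KDM2B recruits, had 33 and 18 in WT and 67 and 62 in KO (1.36 ± 0.42, limma adjusted p = 1). These 2 sites and the promoter of Cuta, within reach of Phf1 (451 and 408 in WT, 495 and 623 in KO), were named after their values were seen, as the remaining sites with p under 0.05.

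By group, main promoters above 0 were 7 of 8 for PRC2 subunits, 7 of 9 for canonical PRC1, 9 of 14 for variant PRC1, 3 of 5 for PR-DUB, 2 of 2 for the H3K27 demethylases and 2 of 4 for PhoRC and MBT genes. The largest difference above 0 was at Scmh1, followed by Phf19. Scmh1, a PRC1-associated gene, had 252 and 169 in WT and 285 and 280 in KO (0.45 ± 0.23), and its log2 fold change was 0.16 without WT replicate 2 and 0.74 without WT replicate 1. The largest differences below 0 were at Auts2, with 93 and 113 in WT and 17 and 140 in KO (-1.04 ± 0.89), and at Asxl3, with 48 and 56 in WT and 45 and 24 in KO (-0.64 ± 0.43). Auts2 depended on KO replicate 1, with a log2 fold change of 0.45 without it, and Asxl3 had -0.20 without KO replicate 2.

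**Figure D5:**
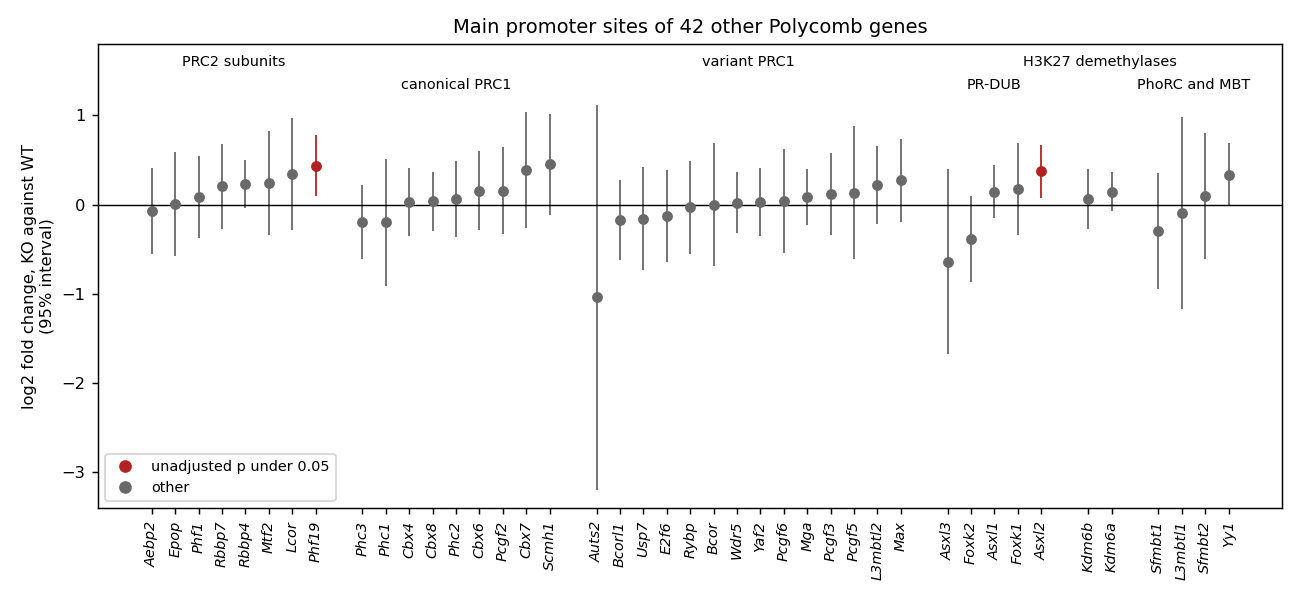
Log2 fold change of KO against WT with its 95% interval from limma (vertical axis) at the main promoter sites of 42 other Polycomb genes (horizontal axis), by group and sorted within each group. Red points are Phf19 and Asxl2, the 2 with unadjusted p under 0.05, and Auts2 has the widest interval.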

How the data were processed

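One ATAC-Seq library was made per line. According to the methods and the submitters' processing notes, alignment to mm10 used BWA 0.7.12, peaks were called with MACS2 2.1.0, and DESeq2 was used to test occupancy; read filters and the Tn5 offset were not given in the sources used here. The deposited values are a score, which the file header calls normalized counts: whole numbers per merged region, apparently counts that the authors scaled by library and then rounded. The deposited table also holds the authors' log2 fold changes (raw and shrunken) and p-values (plain and adjusted), which were not used.

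Sites were assigned with GENCODE vM21. The members and gene lists were chosen with earlier results of these data known. Log2(value + 1) was fitted over all 82325 sites, without a filter, by limma 3.58.1 with an intensity trend (R 4.3.3, tested on simulated data). The added 1 understates the change of low sites. Gene sums were fitted likewise over 16947 genes. A main promoter is the gene's own promoter site with the highest mean. Member sites named by rule were all main promoters, sites with p under 0.05 and each member's strongest and most different site. Among other Polycomb genes they were the main promoters with p under 0.05 and the 2 largest differences each way. Further member sites given in the text were outside this rule, and their values were known when they were named. Replicates were numbered in accession order and are separate lines. Depth was estimated from gaps among values of 1 to 100. Python 3.11.15 was used.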

Additional observations from a re-analysis of the deposited data

How the results depend on the processing

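No paired analysis was possible because replicate numbers follow accession order and no label pairs the lines. The names of WT replicate 1 and KO replicate 2 share a number, and what it marks is not stated. None of the 44 sites was called under any alternative except an unadjusted p under 0.05 without a fold filter, which gave 1. Over all sites, the 307 calls (81.1% lower in KO) became 115 among higher-signal sites (66.1% lower), 537 without the intensity trend, 0 at adjusted p under 0.05, 2579 at unadjusted p under 0.05, and 36 to 612 with 1 library left out. The lowest count was without WT replicate 2 (38.9% lower), 71 were called without WT replicate 1 (28.2% lower), and 612 were called without KO replicate 2. Calls among the other Polycomb sites went from 0 to 1 with chromosome centring (the Bcor site, log2 fold change 1.46), to 5 at unadjusted p under 0.05, and to between 0 and 3 with 1 library left out (3 without KO replicate 2). By summed sites, 51 genes were called, against 84 without the trend, 0 at adjusted p under 0.05, 658 at unadjusted p under 0.05, and 28 to 197 with 1 library left out. The median log2 fold change of the 44 sites was -0.11 with equal totals (all sites -0.06), -0.14 at own promoters only, and -0.12 to 0.023 with 1 library left out. Among main promoters, Ezh2 turned to 0.012 with chromosome centring and Eed to -0.0054 with quantile normalization. With 1 library left out, the log2 fold change ranged from -0.15 to 0.060 for Ezh2, -0.50 to 0.070 for Ezh1, -0.20 to 0.44 for Eed, -0.074 to 0.059 for Jarid2, -0.33 to 0.015 for Cbx2 and -0.39 to 0.11 for Kdm2b. Single-site values were scored at the 10 main promoters, the Cbx2 site at 3.42 kb and the Kdm2b site at 20.4 kb. The 5 other Polycomb sites with unadjusted p under 0.05 were scored too. At these sites the remaining 158 values kept their direction and side of the call rule. They include the fits without the intensity trend and among higher-signal sites. Those fits leave each log2 fold change as it was, so direction could not change there and only p could. Other named sites were not scored, and some reversed. Without KO replicate 1 the Ezh2 intronic site went from -0.29 to 0.44 and the Auts2 promoter from -1.04 to 0.45. What lay behind such shifts was not tested. With a library left out, the lone line is assumed to vary like the other genotype. Depth limits the weak sites most: 7 of the 44 had a mean under 30 normalized counts.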
